A study of Mus musculus with 24 samples.

Results

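Integrins, laminins, nidogens and dystroglycan, the genes that tie a cell to its basement membrane, were followed in 4 cell populations sorted from mouse muscle. Members were chosen by symbol: the integrin alpha and beta genes, the laminin alpha, beta and gamma genes, Nid1, Nid2 and Dag1, each with at least 20 counts summed over all libraries. That gave 40 of the 52997 symbols in the table, namely 18 integrin alpha, 8 integrin beta and 11 laminin genes with 2 nidogens and Dag1. The filter on low counts left 37 of them for testing, because Itga10, Itgad and Lama1 were too low (at most 3.33, 2.26 and 1.27 CPM in any library).

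Integrins are receptors made of an alpha and a beta subunit, and the pair decides what the cell binds: matrix proteins, or ligands on other cells. Laminins are trimers of an alpha, a beta and a gamma chain that form the sheet of the basement membrane, nidogens join that sheet to collagen IV, and dystroglycan binds laminin and connects it to dystrophin inside the cell. In skeletal muscle the chain Lama2 and the receptors Itga7 and Dag1 hold the fiber and its stem cell to the basement membrane, and mutations of these genes in people cause muscular dystrophies or congenital myopathies.

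The cells came from hindlimb muscle of C57BL/6 mice aged 8 weeks, either 1 day after cardiotoxin, which is a cobra venom toxin that lyses muscle fibers, or uninjured. Each condition gave CD31+ cells (endothelial), CD45+ cells (hematopoietic), MSC (mesenchymal stromal cells sorted as CD45-CD31-Sca1+PDGFRa+) and MuSC (satellite cells, the stem cells of muscle, sorted as CD45-CD31-Sca1-Vcam1+), which made 8 groups with 3 libraries in each. Libraries within a group are labelled as biological replicates, but it is not stated whether a shared number marks a shared mouse. The p-values therefore cover library-to-library spread alone.

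Library totals ranged from 2301202 to 7649841 counts, so a count of 0 allows a level of up to 0.389 to 1.02 CPM (3 counts) in a single library, for counting error only. The sorted cells carried the markers of their labels: the sum of 8 endothelial genes was 8370 to 9340 CPM in injured and 10481 to 10783 CPM in uninjured CD31+ cells, and at most 135 CPM in the other populations. The 8 leukocyte genes summed to at least 11621 CPM in CD45+ cells and at most 180.0 CPM elsewhere. Other lists were less exclusive. The 8 satellite cell genes summed to at least 3647 CPM in MuSC, but reached 1108 CPM in injured MSC and 631 CPM in injured CD45+ cells. Of this list, Pax7, Calcr, Cdh15, Chrdl2 and Fgfr4 had 0 counts in injured CD45+ cells, where Sdc4 alone averaged 513 CPM. Pax7 and Myf5 had 0 counts in injured MSC. The 8 stromal genes summed to at least 38744 CPM in MSC, but reached 4713 CPM in uninjured MuSC and 3237 CPM in injured CD31+ cells. Each of these lists holds genes of surface proteins used for the sort (Pecam1, Ptprc, Vcam1, or Ly6a and Pdgfra). Their sums are therefore not independent of the sort. Some libraries stood apart on a single gene or a marker sum. Pdgfra, a stromal gene, was at 0.298, 48.8 and 25.4 CPM in libraries 1 to 3 of injured MuSC and at 6.31 CPM in injured CD45+ library 3. The whole list of 8 stromal genes was more even, at 1851 to 2618 CPM in injured MuSC and 1066 to 1327 CPM in injured CD45+ cells. The sum of 8 leukocyte genes was 180.0 CPM in injured CD31+ library 1 against 24.6 and 24.8 CPM in the other injured CD31+ libraries. Injury calls that a fit without these 4 libraries (injured MuSC 2 and 3, injured CD31+ 1 and injured CD45+ 3) ended or added are therefore named with each population. Uninjured MuSC library 3 was kept in that fit, although its 5 tendon genes summed to 263 CPM, above the other uninjured MuSC libraries (median 3.68 CPM over the group). In bulk samples, fewer cells of a type and less RNA per cell cannot be told apart, which concerns above all the CD45+ cells, a mix of leukocytes.

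The promoters of 4 members named in the results below are shown, each as the 250 bases before the RefSeq start site (GRCm38.p6), 5′ to 3′ on the gene's strand. Itga5 and Itgb5 encode the fibronectin receptor's alpha subunit and a vitronectin receptor's beta subunit, and passed the injury test in all 4 populations. Itgam and Itgax are leukocyte genes that neighbour each other on chromosome 7, and Itgax passed the injury test in no population. Capitals mark a match to a PU.1 motif (GAGGAA) in Itga5 and Itgam, an E-box (CAGCTG) in Itgb5 and an AP-1 motif (TGACTCA) in Itgax, on either strand. The windows lie at chr15:103366792-103367041 (minus strand, Itga5), chr16:33829415-33829664 (plus, Itgb5), chr7:128062390-128062639 (plus, Itgam) and chr7:128129300-128129549 (plus, Itgax).
Itga5: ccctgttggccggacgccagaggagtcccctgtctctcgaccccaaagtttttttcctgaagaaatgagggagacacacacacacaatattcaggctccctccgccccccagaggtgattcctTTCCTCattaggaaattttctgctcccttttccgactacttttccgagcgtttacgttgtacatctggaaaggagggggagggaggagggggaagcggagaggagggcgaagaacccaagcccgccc
Itgb5: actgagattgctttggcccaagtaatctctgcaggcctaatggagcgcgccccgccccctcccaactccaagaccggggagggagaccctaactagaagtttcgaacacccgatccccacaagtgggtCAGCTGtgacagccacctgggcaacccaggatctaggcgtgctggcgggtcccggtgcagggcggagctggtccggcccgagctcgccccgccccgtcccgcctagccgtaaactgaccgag
Itgam: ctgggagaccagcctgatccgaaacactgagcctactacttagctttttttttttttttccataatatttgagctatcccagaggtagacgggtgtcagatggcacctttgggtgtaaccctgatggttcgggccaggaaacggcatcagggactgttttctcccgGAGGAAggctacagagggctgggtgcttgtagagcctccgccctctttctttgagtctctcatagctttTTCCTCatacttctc
Itgax: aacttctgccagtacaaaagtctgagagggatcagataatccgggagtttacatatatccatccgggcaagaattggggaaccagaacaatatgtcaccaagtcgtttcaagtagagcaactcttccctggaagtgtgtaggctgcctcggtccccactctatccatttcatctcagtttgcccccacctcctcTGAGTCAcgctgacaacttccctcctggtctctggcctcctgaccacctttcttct

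Windows were given for 25 members, 29 windows in all, and 5 motifs were searched on both strands. The PU.1 letters stood in 14 of the 29 windows, against 23.3% of 32851 mouse promoter windows, at -84 and -15 in Itgam and at -127 in Itga5, counted from the start site. The E-box was in 6 of the 29 (13.0% of all windows), at -122 in Itgb5. The AP-1 motif was in 1 of the 29, at -56 in Itgax (4.46% of all), the TEAD motif GGAATG in 4 (12.6%) and the RUNX motif TGTGGT in 2 (14.0%). Matches to the PU.1 and TEAD motifs can overlap, since both hold the letters GGAA. A match describes the letters and shows no binding.

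The populations were told apart by these genes already in uninjured muscle. A gene was counted as highest in a population when it passed against each of the other 3 (edgeR quasi-likelihood test, Benjamini-Hochberg adjusted p below 0.05). Of the 37 genes, 13 were highest in uninjured MSC (9.09% of all genes tested), 8 in CD45+ cells (13.7%), 6 in CD31+ cells (9.92%) and 3 in MuSC (7.88%). The map of mean levels shows these blocks: leukocyte integrins in CD45+ cells, matrix chains in MSC, Itga7 and Dag1 in MuSC.

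**Figure D1:**
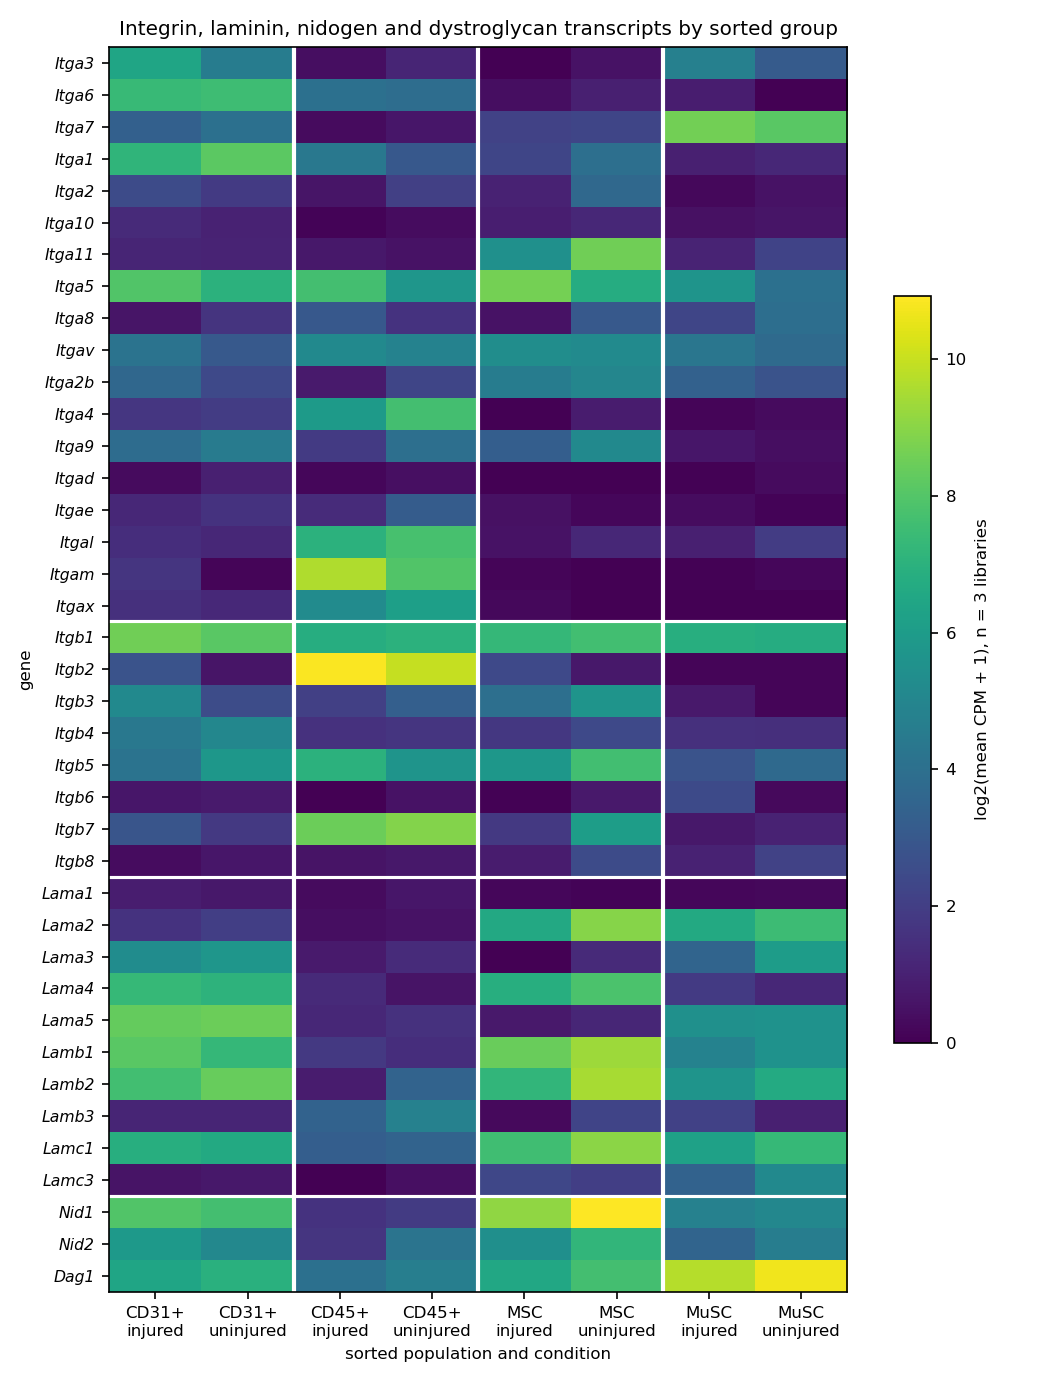
Mean level of the genes as log2(mean CPM + 1) in each group of 3 libraries, ordered by role (integrin alpha, integrin beta, laminin chains, then nidogens and dystroglycan), with the injured column left of the uninjured one. Itgb2 and Itgam are bright in CD45+ cells, Dag1 and Itga7 in MuSC, and most laminin rows, both nidogen rows and Itga11 are dimmer in injured than in uninjured MSC.

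In uninjured CD31+ cells the genes highest by this test were the laminin receptor subunits Itga3, Itga6 and Itgb4, the collagen receptor subunit Itga1, the shared subunit Itgb1 and the endothelial laminin chain Lama5. Itga1 was at 303, 284 and 285 CPM there and averaged at most 14.8 CPM elsewhere, a log2 difference of 4.30 to the next population (adjusted p = 4.94e-10). Itga6 was at 211, 163 and 185 CPM, 3.72 log2 units above the next, CD45+ cells. Lama5 was at 410.4, 307 and 357 CPM, against 46.7 CPM in MuSC, the next population (log2 difference 2.94). All 3 libraries of CD31+ cells were above every library of the other uninjured populations for these 3 genes. The difference was least for Itgb1, 0.53 log2 units above MSC (adjusted p = 0.00408).

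Uninjured CD45+ cells were highest for the leukocyte integrins Itga4, Itgae, Itgal, Itgam, Itgax, Itgb2 and Itgb7, and for the laminin chain Lamb3. Itgb2, the beta subunit shared by Itgal, Itgam and Itgax, was at 1015, 966 and 1001 CPM and at most 1.51 CPM in any library of the other uninjured populations. Itgam, the CD11b subunit of myeloid cells, was at 292, 230.2 and 229.8 CPM, against at most 0.282 CPM elsewhere. Itga4, a receptor subunit for Vcam1 and fibronectin, was at 183, 189 and 231 CPM, 6.17 log2 units above CD31+ cells. No library of another population came near these levels. In GENCODE vM21, 68.7% of the exon bases of Itgam also belong to the gene model Gm49368 on the same strand, and how reads there were assigned is not given in the sources used here.

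Uninjured MSC were highest for laminin chains (among them Lama2, Lama4, Lamb1, Lamb2 and Lamc1), both nidogens, the collagen receptor subunits Itga2 and Itga11, and Itga2b, Itgb3 and Itgb5. Nid1 was at 2147, 1828 and 1864 CPM, 3.28 log2 units above CD31+ cells (adjusted p = 6.52e-06). Itga11 was at 456, 316 and 368 CPM, against an average of at most 3.53 CPM in the other populations (log2 difference 6.67). Neither gene overlapped between MSC and any other uninjured population.

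Uninjured MuSC were highest for Dag1, for Itga7, the laminin receptor subunit of muscle, and for the laminin chain Lamc3. Dag1 was at 1678, 1807 and 1468 CPM, 3.04 log2 units above MSC. Itga7 was at 303, 289 and 241 CPM, 4.15 log2 units above CD31+ cells, which averaged 15.3 CPM. Lamc3 was at 35.2, 17.6 and 54.6 CPM, against 3.12 CPM in MSC (log2 difference 3.51). The sum of 5 tendon genes was 263 CPM in the library with 54.6 CPM of Lamc3, against 2.37 and 3.68 CPM in the other uninjured MuSC libraries. The part of such cells in Lamc3 was not tested. Of the remaining genes tested, Itga5, Itga8, Itga9, Itgav, Itgb6, Itgb8 and Lama3 were highest in no uninjured population. Lama3, a chain of epithelial laminin, averaged 63.9 CPM in MuSC and 52.1 CPM in CD31+ cells, which did not differ beyond their spread (adjusted p = 0.459).

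After injury the order changed for several genes. CD31+ cells were then highest for 9 genes (10.8% of all genes tested), with Itga2, Itgb3 and Lama3 added. CD45+ cells were highest for 8 (15.4%), among them Itgb5 but no longer Itgae, MSC for 5 (5.75%), among them Itga5, Itga11, Lamc1 and Nid1, and MuSC for 3 (8.63%), which were Dag1, Itga7 and Itgb6. Lama2, highest in uninjured MSC, averaged 97.3 CPM in injured MuSC and 94.5 CPM in injured MSC.

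In MSC most of these genes fell after injury. Of 37 genes, 23 fell (23.6% of all genes tested fell) and 2 rose (18.3% rose), and the median log2 fold change was -1.59, against -0.22 over all genes tested. The losses covered 8 of the 10 laminin chains tested, both nidogens, Dag1, 7 integrin alpha and 5 integrin beta genes. Marker sums moved beside them. The 8 stromal genes summed to 38744 to 56393 CPM in injured and 154232 to 198406 CPM in uninjured MSC, and 8 muscle fiber genes to 2.66 to 13.4 CPM in injured (Tnnc2 at 0 counts) and 133 to 382 CPM in uninjured MSC. The 5 tendon genes summed to 1052 to 1773 CPM in injured and 437 to 1085 CPM in uninjured MSC, and 5 lymphatic endothelial genes to 3274 to 3795 CPM in injured and 407 to 433 CPM in uninjured MSC. In CD31+ cells that lymphatic list summed to less, 153 to 202 CPM injured and 170 to 351 CPM uninjured. Pericyte and smooth muscle sums (8 genes) were 202 to 256 CPM in injured (Rgs5 at 0 counts) and 352 to 375 CPM in uninjured MSC. The part of these in the changes was not tested.

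Lama2, the muscle laminin chain, was at 81.4, 111 and 90.9 CPM in injured MSC, against 465, 467 and 559 CPM in uninjured MSC. Every injured library was below every uninjured one, and Lama2 fell by 2.39 ± 0.19 on the log2 scale (SE, adjusted p = 5.46e-10). Lamc1, the gamma chain of most laminins, was at 173, 212 and 181 CPM in injured and 499.5, 498 and 583 CPM in uninjured MSC (log2 fold change -1.48 ± 0.13, adjusted p = 3.83e-09). Again the groups did not overlap. Lamb2 averaged 145 ± 33.3 CPM in injured and 731 ± 136 CPM in uninjured MSC (SD, n = 3 each; log2 fold change -2.34). Nid1 averaged 549.7 ± 96 and 1946 ± 175 CPM in injured and uninjured MSC, and Nid2 42.6 ± 2.73 and 143 ± 27.4 CPM (log2 fold changes -1.82 and -1.75). Lama4 and Lamb3 fell as well, by 1.01 and 3.99 on the log2 scale. Lama3 had 0 counts in the injured and 21 counts in the uninjured libraries, which made it at least 8.96-fold lower against a floor of 3 counts over the group. Lamb1 (log2 fold change -0.93, adjusted p = 0.0419) lost its call in 20 of 31 alternative fits, while Lama5 and Lamc3 did not pass, at 0.685 and 4.0 CPM in injured and 1.24 and 3.12 CPM in uninjured MSC.

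Among the integrins of MSC, Itga11 was at 38.9, 57.0 and 35.2 CPM in injured libraries, against 456, 316 and 368 CPM in uninjured libraries. It fell by 3.12 ± 0.30 on the log2 scale (adjusted p = 2.52e-08), with no overlap. Itgb5 was at 52.8, 58.7 and 52.3 CPM in injured and 177, 201 and 209.9 CPM in uninjured MSC. That fall, 1.84 ± 0.15 on the log2 scale (adjusted p = 7.55e-10), also left the groups apart. Itgb7, the beta subunit of the gut homing integrin of lymphocytes, was at 2.24, 3.98 and 1.44 CPM in injured and 86.6, 87.1 and 24.9 CPM in uninjured MSC (log2 fold change -4.68). The leukocyte gene sum in MSC was only 0.539 to 2.32 CPM injured and 1.55 to 2.91 CPM uninjured. Itga1, Itga2, Itga8, Itga9 and Itgb3 fell by 1.92, 3.45, 4.01, 2.04 and 1.72 on the log2 scale. Itga3, Itga4, Itgb6 and Itgb8 fell at low levels, with 0, 0, 1 and 16 counts in the injured and 6, 12, 10 and 68 counts in the uninjured libraries. Itgb6 lost its call in 22 of 30 alternative fits. Itga3 lost it without uninjured MSC library 3 or any injured MSC library, Itga4 without uninjured library 2 or injured library 1, and Itgb8 without uninjured library 1 or 3 or injured library 2 or 3 (highest adjusted p 0.318, 0.0587 and 0.111). Itga3 also lost its call with limma voom. Dag1 averaged 92.4 ± 10.3 CPM in injured and 200.3 ± 31.9 CPM in uninjured MSC (log2 fold change -1.12, adjusted p = 4.21e-05).

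Itga5 rose in MSC. It was at 489, 322 and 390.4 CPM in injured MSC, against 108, 95.9 and 119.7 CPM in uninjured MSC. All injured libraries were higher, and the log2 fold change was 1.89 ± 0.24 (adjusted p = 1.87e-06). Itgb2 also passed, at 4.47, 3.81 and 4.67 CPM in injured and 1.51, 0.224 and 0.222 CPM in uninjured MSC (log2 fold change 2.53, adjusted p = 0.0387). Its call was lost in 7 of 31 alternative fits, among them those without uninjured MSC library 2 or 3 or any 1 injured MSC library. Itgb1, Itgav, Itga2b, Itga6, Itga7, Itgae, Itgal, Itgam, Itgax and Itgb4 did not pass; Itgb1 averaged 156 ± 14.8 CPM in injured and 193 ± 14.3 CPM in uninjured MSC. Of the 23 falls, 17 passed in every alternative fit. Lama4 lost its call without injured library 1 (adjusted p = 0.0900) or uninjured library 1 (0.0548). The fit without the 4 libraries that stood apart, none of them MSC, ended the calls of Itgb6 and Lamb1 in MSC (adjusted p = 0.105 and 0.123).

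**Figure D2:**
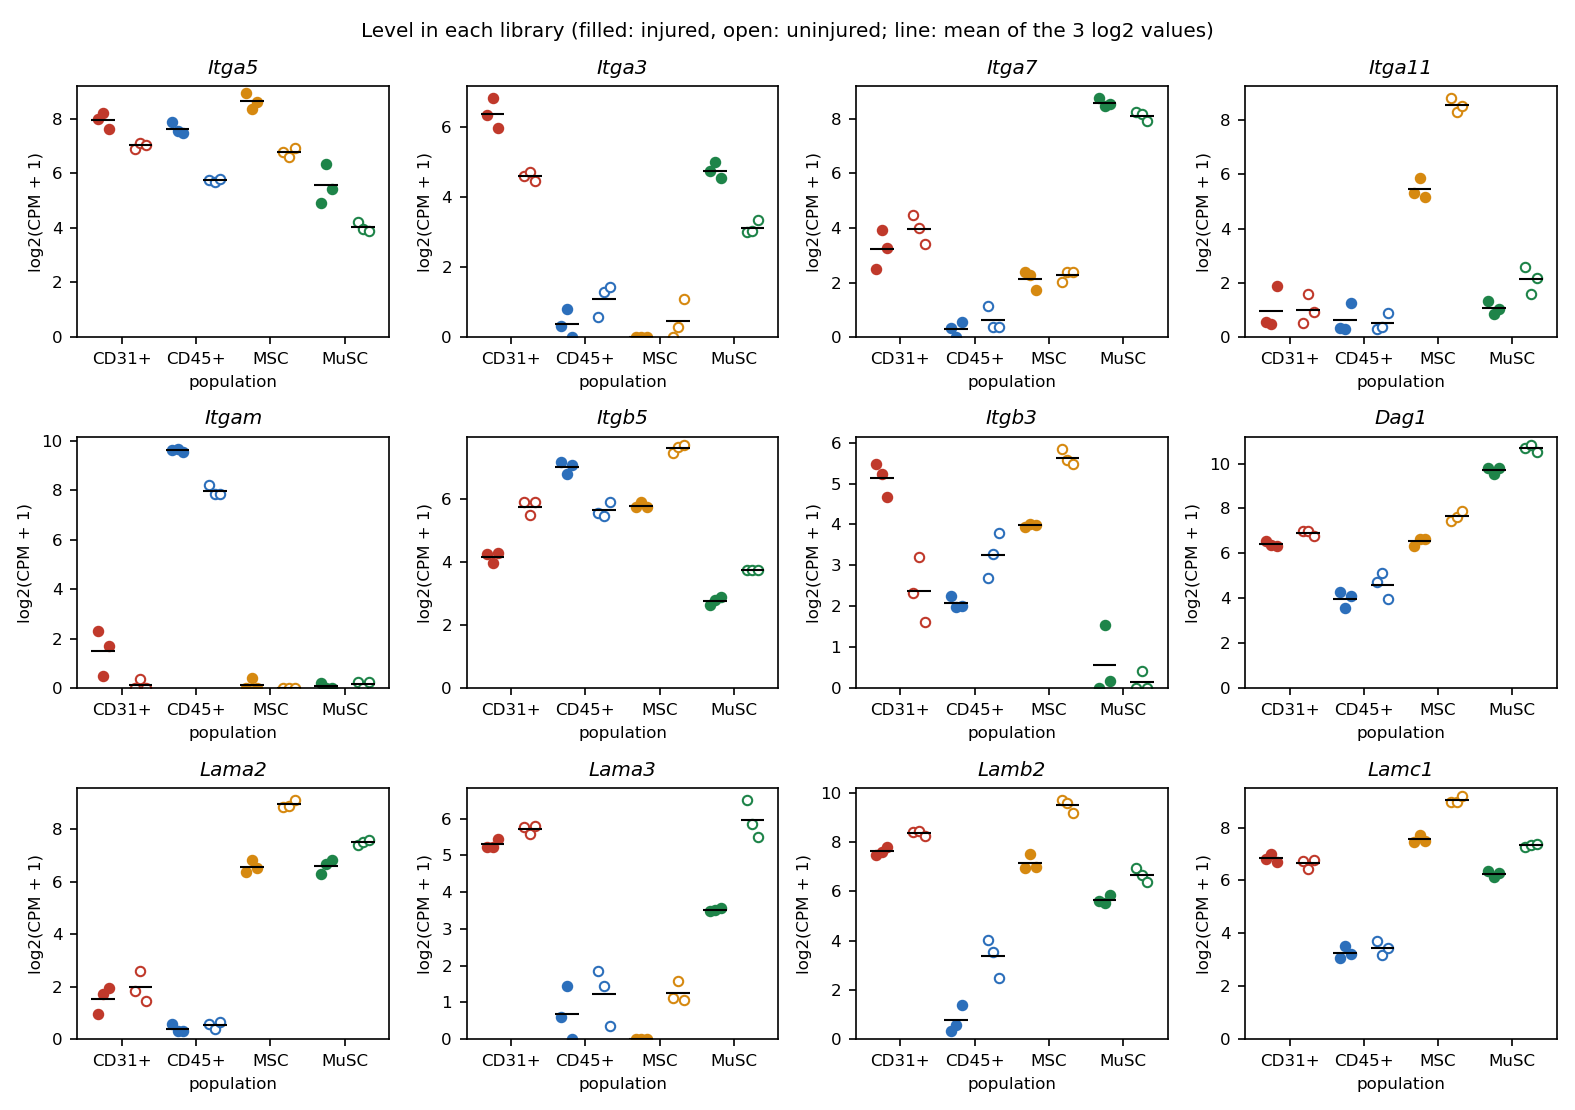
Level in each library as log2(CPM + 1) for 12 genes, with injured libraries as filled and uninjured libraries as open circles and the mean of the 3 log2 values as a line. Itga5 is higher in injured cells of all 4 populations, Itgb5 is higher only in injured CD45+ cells and lower in the other injured populations, and Lama2 and Lamc1 are lower in injured MSC and MuSC.

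In MuSC 6 laminin chains, Nid2, Dag1 and 4 integrin subunits fell, and 3 integrin subunits rose. Of 37 genes, these were 12 falls (17.5% of all genes tested fell) and 3 rises (21.4% rose), with a median log2 fold change of -0.41 against -0.04 over all genes. The falls took in 6 of the 10 laminin chains tested. The sum of 8 satellite cell genes was 3647 to 4248 CPM in injured and 5332 to 6442 CPM in uninjured MuSC, and that of 6 genes of differentiating myoblasts was 2411 to 2538 CPM in injured MuSC (Myh3 at 0 counts) and 597 to 993 CPM in uninjured MuSC. The 8 stromal genes summed to 1851 to 2618 CPM in injured and 3995 to 4713 CPM in uninjured MuSC. Sums of 8 pericyte and smooth muscle genes were 495 to 981 CPM in injured and 1146 to 1961 CPM in uninjured MuSC. Muscle fiber sums (8 genes) were 148 to 180.2 CPM in injured and 338 to 375 CPM in uninjured MuSC. Acta1 and Ckm are in both the fiber and the myoblast list. The higher myoblast sum in injured MuSC therefore came from its other members Myod1, Myog and Mymk. The lymphatic endothelial list summed to 1492 to 2361 CPM in injured and 473 to 549.8 CPM in uninjured MuSC (Mmrn1 at 0 counts in uninjured MuSC). These sums too were above those of CD31+ cells (153 to 202 CPM injured and 170 to 351 CPM uninjured). The part of all these lists in the changes was not tested.

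Lamc1 was at 81.7, 68.6 and 77.2 CPM in injured MuSC, against 152, 159 and 166 CPM in uninjured MuSC. It fell by 1.07 ± 0.13 on the log2 scale (adjusted p = 7.03e-07), and the groups stood apart. Lama3 was at 10.3, 10.4 and 10.8 CPM in injured and 90.2, 57.3 and 44.2 CPM in uninjured MuSC (log2 fold change -2.61 ± 0.34, adjusted p = 2.31e-06). Its injured libraries were nearly equal. Lama2 was at 78.0, 102 and 112 CPM in injured and 169.6, 181 and 189.9 CPM in uninjured MuSC (log2 fold change -0.89 ± 0.18, adjusted p = 0.000411). Lamb2 and Lamc3 fell by 1.02 and 1.88 on the log2 scale, although Lamc3 overlapped between conditions and lost its call without injured library 1 or 2 or uninjured library 3. Lamc3 also lost it in the fit of the 6 MuSC libraries. Nid2 averaged 10.4 ± 3.37 CPM in injured and 24 ± 5.82 CPM in uninjured MuSC, and lost its call without uninjured MuSC library 1 (adjusted p = 0.0692), injured library 3 (0.0641) or the 4 libraries that stood apart (0.0850). Lama4, Lama5, Lamb1, Lamb3 and Nid1 did not pass in MuSC.

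Dag1 was at 898, 737 and 896 CPM in injured MuSC, against 1678, 1807 and 1468 CPM in uninjured MuSC. All injured libraries were lower (log2 fold change -0.97 ± 0.18, adjusted p = 0.00018), yet injured MuSC were still highest for Dag1 among the injured populations. Itga7 was at 434, 353 and 368 CPM in injured and 303, 289 and 241 CPM in uninjured MuSC. The libraries did not overlap, but the test did not pass in the reported fit (log2 fold change 0.47, adjusted p = 0.131). Itga7 passed as a rise with limma voom, without the low-count filter and in the fit of the 6 MuSC libraries. Its partner Itgb1 averaged 115 ± 23.3 CPM in injured and 109 ± 5.16 CPM in uninjured MuSC (adjusted p = 0.685).

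Itga3, a laminin receptor subunit, was at 25.4, 30.8 and 22.1 CPM in injured MuSC, against 6.97, 7.12 and 9.03 CPM in uninjured MuSC. The log2 fold change was 1.75 ± 0.35 (adjusted p = 0.000371), with no overlap. Itga5 was at 29.0, 79.2 and 42.1 CPM in injured and 17.6, 14.6 and 13.7 CPM in uninjured MuSC (log2 fold change 1.70 ± 0.27, adjusted p = 3.3e-05). Its lowest injured library was the one with little Pdgfra, and without the 4 libraries that stood apart the log2 fold change of Itga5 was 0.76 (adjusted p = 0.0268). Itgb6 had 94 counts over the injured and 3 counts over the uninjured MuSC libraries (log2 fold change 4.21, adjusted p = 0.00144, and 0.0608 without those 4 libraries). Itgb5, Itga8, Itga11 and Itgal fell, by 1.08, 1.90, 1.72 and 1.66 on the log2 scale, and Itga8 lost its call without those 4 libraries (adjusted p = 0.0710). Itga11 passed no longer without uninjured MuSC library 1 or injured library 2, and Itgal without uninjured library 1 or 3 or injured library 2 or 3 (adjusted p 0.0536 to 0.109 and 0.0665 to 0.306). Both calls were also lost with limma voom. Without the 4 libraries neither passed, with a log2 fold change of -1.46 for Itga11 (adjusted p = 0.136) and -0.94 for Itgal (0.335). That fit added falls of Itgb8 and Nid1 (adjusted p = 0.0381 and 0.0439) and a rise of Itga6 (0.0302) in MuSC, where it left 1 injured library, assumed to vary like the other groups. Itgav, Itga1, Itga2, Itga2b, Itga4, Itga6, Itga9, Itgae, Itgam, Itgax, Itgb2, Itgb3, Itgb4, Itgb7 and Itgb8 did not pass in MuSC. Itga6 had 17 counts in injured and 0 counts in uninjured MuSC, at least 3.74-fold higher against 3 counts over the group, with an adjusted p of 0.0571.

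In CD31+ cells several integrin subunits rose and 3 fell. Of 37 genes, 8 rose (14.1% of all genes tested) and 4 fell (9.30%), and with RLE scaling in place of TMM the counts were 7 and 6. The sum of 7 platelet genes, among them Itga2b, was 26.2 to 67.1 CPM in injured and 10.2 to 13.0 CPM in uninjured CD31+ cells, and that of 8 pericyte and smooth muscle genes was 338 to 515 CPM in injured and 586 to 827 CPM in uninjured cells. Their part in the changes was not tested. Itgb3, the beta subunit that pairs with Itgav, or with Itga2b in platelets, was at 43.5, 36.7 and 24.4 CPM in injured CD31+ cells, against 4.04, 8.19 and 2.06 CPM in uninjured cells. It rose in every injured library relative to every uninjured one (log2 fold change 2.87 ± 0.48, adjusted p = 9.15e-05). Itgav itself averaged 16.8 ± 5.14 CPM in injured and 7.31 ± 3.48 CPM in uninjured cells (log2 fold change 1.20, adjusted p = 0.00284). Itga3 was at 79.8, 112 and 61.6 CPM in injured and 23.4, 25.4 and 20.9 CPM in uninjured cells (log2 fold change 1.86 ± 0.33, adjusted p = 0.000167). Itga5 was at 249.5, 291 and 197 CPM in injured and 117, 138 and 131 CPM in uninjured cells (log2 fold change 0.93 ± 0.24, adjusted p = 0.006). Neither gene overlapped between conditions. Itgb1 was at 376, 415 and 328 CPM in injured and 279, 271 and 285 CPM in uninjured cells; its rise of 0.42 on the log2 scale (adjusted p = 0.0351) lost its call in 8 alternative fits, including those without injured library 1 or 2 or any uninjured library, where the adjusted p was 0.0638 to 0.146, and without the 4 libraries (0.0676). That fit added a rise of Itga2b in CD31+ cells (adjusted p = 0.0441).

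Falls in CD31+ cells were fewer. Itgb5 was at 18.2, 14.6 and 18.4 CPM in injured CD31+ cells, against 58.7, 44.3 and 58.7 CPM in uninjured cells. It fell by 1.66 ± 0.16 on the log2 scale (adjusted p = 2.87e-08), with no overlap. Itga1 was at 145, 143 and 136 CPM in injured and 303, 284 and 285 CPM in uninjured cells (log2 fold change -1.04 ± 0.28, adjusted p = 0.00992). Lamb2 was at 179, 195 and 220.2 CPM in injured and 342, 346 and 299.7 CPM in uninjured cells (log2 fold change -0.73 ± 0.24, adjusted p = 0.029), and passed no longer without injured library 1 or 2, uninjured library 1 or 2, or the 4 libraries (adjusted p = 0.0799 to 0.114). Itga8 had 9 counts in injured and 25 counts in uninjured cells (log2 fold change -2.02, adjusted p = 0.027) and lost its call without uninjured library 1 or 3, injured library 1 or 3, or the 4 libraries (adjusted p = 0.0629 to 0.132). Without the low-count filter Itga8 did not pass either. Lama2, Lama3, Lama4, Lama5, Lamb1, Lamb3, Lamc1, Lamc3, Nid1, Nid2 and Dag1 did not pass. Lama5 averaged 326 ± 20.2 CPM in injured and 358 ± 51.6 CPM in uninjured cells.

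The leukocyte subunits Itgam and Itgb2 also passed in CD31+ cells, at low levels. Itgam was at 4.0, 0.388 and 2.22 CPM in injured and 0, 0.282 and 0 CPM in uninjured CD31+ cells (42 counts and 1 count). Itgb2 was at 14.9, 1.55 and 1.27 CPM in injured and 0.425, 1.13 and 0 CPM in uninjured cells. Injured library 1, with the highest value of both, was the library with 180.0 CPM of leukocyte genes. Itgb2 did not pass without that library (log2 fold change 1.40, adjusted p = 0.166) or the 4 libraries (0.190), or without uninjured library 1 or 3 (0.0832 and 0.0720), while without injured library 1 Itgam did (3.67, adjusted p = 0.013). Itga2, Itga2b, Itga4, Itga6, Itga7, Itga9, Itga11, Itgae, Itgal, Itgax, Itgb4, Itgb6, Itgb7 and Itgb8 did not pass in CD31+ cells.

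In CD45+ cells Itgam, Itga1, Itga5, Itga8 and Itgb5 rose, and Itga4, Itga9, Itgae, Itga2b, Itgb3, Lamb2, Nid2 and Dag1 fell. Of 37 genes, 5 rose (16.0% of all genes tested) and 8 fell (18.5%). Marker sums of several leukocyte types differed between conditions. Neutrophil genes summed to 5755 to 9226 CPM in injured and 1113 to 3388 CPM in uninjured CD45+ cells, and B cell genes to 8.82 to 51.1 and 696 to 2978 CPM. T cell genes summed to 2.70 to 13.8 and 101 to 296 CPM, and dendritic cell genes (a list that holds Itgae) to 62.2 to 230.3 and 572 to 1206 CPM. Platelet genes (a list that holds Itga2b) summed to 2858 to 4333 CPM in injured and 519 to 1546 CPM in uninjured cells. Gp1bb and Gp6 went against this sum, with 0 counts in injured cells. Itga2b did too, at 0.704 CPM in injured and 3.83 CPM in uninjured cells on average. Monocyte and macrophage genes overlapped, at 22076.5 to 23579 CPM in injured and 18417 to 25767.5 CPM in uninjured cells. The part of these in the changes below was not tested.

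Itgam was at 787, 814 and 742 CPM in injured CD45+ cells, against 292, 230.2 and 229.8 CPM in uninjured cells. It rose by 1.64 ± 0.24 on the log2 scale (adjusted p = 2.85e-05), and the groups stood apart. Itga5 was at 235, 185 and 176 CPM in injured and 53.4, 49.7 and 54.7 CPM in uninjured cells (log2 fold change 1.92 ± 0.25, adjusted p = 4.85e-06). Itgb5 was at 143, 109.5 and 135 CPM in injured and 45.8, 43.4 and 59.5 CPM in uninjured cells (log2 fold change 1.38 ± 0.15, adjusted p = 2.01e-07). Both were higher in every injured library. Itga1 and Itga8 rose as well, by 1.49 and 1.76, and Itga8 did not pass without injured library 3 (adjusted p = 0.0791) or the 4 libraries (0.104). Itgb2, the partner of Itgam, was at 1986, 1894 and 1659 CPM in injured and 1015, 966 and 1001 CPM in uninjured cells. These did not overlap, but the test did not pass in the reported fit (log2 fold change 0.89, adjusted p = 0.117). Itgax did not pass there either (adjusted p = 0.125). Itgb2 did pass with limma voom, in the fit of the 6 CD45+ libraries and without injured CD31+ library 1. Itgax passed as a fall with limma voom and in that fit of 6 libraries. Without the 4 libraries Itgb2 passed (log2 fold change 1.03, adjusted p = 0.000796), as did falls of Itga2 and Nid1 (0.0416 and 0.00192).

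Itga4, carried by lymphocytes and monocytes, was at 60.9, 47.8 and 71.7 CPM in injured CD45+ cells, against 183, 189 and 231 CPM in uninjured cells. It fell by 1.74 ± 0.33 on the log2 scale (adjusted p = 0.000315), with no overlap. In GENCODE vM21, 8.0% of its exon bases overlap Cerkl on the other strand. Itga9, Itgae, Itga2b and Itgb3 fell by 2.51, 2.36, 2.40 and 1.45, and Itgae and Itga2b overlapped between conditions. Lamb2 and Nid2 fell, with 10 and 28 counts in injured and 118 and 192 counts in uninjured CD45+ cells. Dag1 was at 18.4, 11 and 16.1 CPM in injured and 25.2, 33.6 and 14.6 CPM in uninjured cells; the libraries overlapped, and the fall of 0.69 on the log2 scale (adjusted p = 0.0191) did not pass without uninjured library 1 or 2, injured library 2 or 3, or the 4 libraries (adjusted p = 0.0541 to 0.183), nor with limma voom (0.225). Of the others, Itga2b lost its call without uninjured library 1 or injured library 1 or 2, and Itgae without uninjured library 2 or 3, injured library 1 or 3, or the 4 libraries (highest adjusted p 0.170 and 0.116). Itgb3 lost it in 11 of 31 fits, with an adjusted p of up to 0.196 without uninjured library 3. Dag1 also lost its call in the fit of the 6 CD45+ libraries. Itga2, Itga3, Itga6, Itga7, Itga11, Itgal, Itgav, Itgb1, Itgb4, Itgb6, Itgb7, Itgb8, Lama2, Lama3, Lama4, Lama5, Lamb1, Lamb3, Lamc1, Lamc3 and Nid1 did not pass in CD45+ cells.

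**Figure D3:**
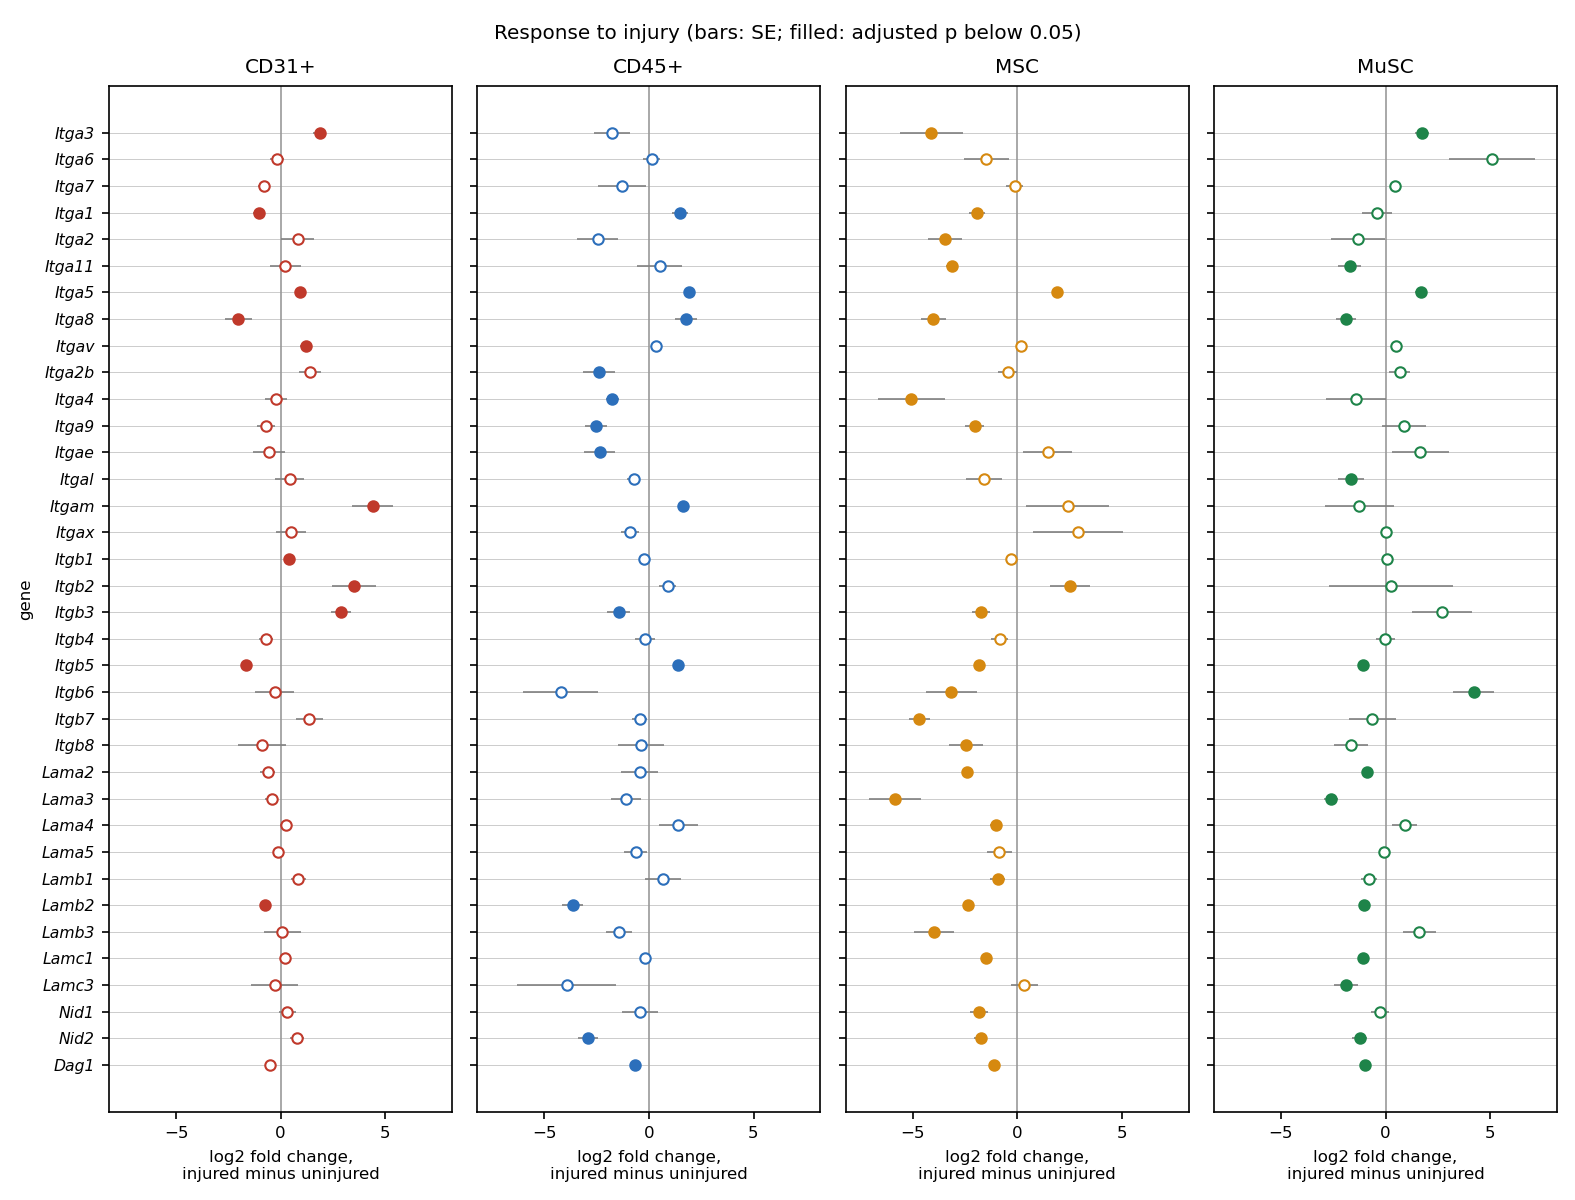
Log2 fold change, injured minus uninjured, of the tested genes in each population, with bars for the standard error (approximate) and filled circles where the adjusted p was below 0.05. In MSC most filled circles lie left of 0, and Itga5 lies right of 0 in all 4 panels.

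The responses themselves were compared between populations with an F test over the 4 injury effects. It passed for 22 of the 37 genes (35.9% of all genes tested). Itgb5 differed most (adjusted p = 3.47e-10): its injury effect in CD45+ cells exceeded the mean effect of the other populations by 2.91 ± 0.18 on the log2 scale (adjusted p = 7.72e-11), and the effects in CD31+ cells and MSC were below the mean of the others by 1.14 and 1.39. Lamc1 differed too (adjusted p = 9.75e-07), with MSC 1.12 ± 0.16 below and CD31+ cells 1.11 ± 0.16 above the others. Itgb3 (adjusted p = 1.95e-05) rose in CD31+ cells and fell in MSC and CD45+ cells. Itga5 rose in each population, with log2 fold changes of 0.93 in CD31+ cells, 1.92 in CD45+ cells, 1.89 in MSC and 1.70 in MuSC. The F test for Itga5 did not pass (adjusted p = 0.0685), although the CD31+ effect was 0.90 ± 0.28 below the mean of the others (adjusted p = 0.0445). Every alternative fit kept the rise of Itga5 in each population.

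Levels were divided by the length of merged exons (CPM per kb) to set different chains side by side. Among laminin alpha chains, Lama5 led in CD31+ cells, with 63.0 ± 0.0939% of the class in injured and 65.9 ± 4.11% in uninjured cells. In MSC the order changed: Lama4 made up 61.6 ± 1.15% in injured and 38.3 ± 2.90% in uninjured MSC, and Lama2 made up 37.9 ± 1.14% in injured and 61.2 ± 2.91% in uninjured MSC (SD, n = 3 each). In MuSC, Lama2 held 53.7 ± 2.32% in injured and 52.4 ± 6.70% in uninjured cells, while Lama5 held 35.3 ± 2.95% and Lama3 8.94 ± 1.16% in injured cells, against 19.4 ± 1.42% and 27.7 ± 8.01% in uninjured cells. Lamb1 made up 59.2 ± 6.84% of laminin beta in injured and 35.3 ± 9.75% in uninjured MSC. In CD31+ cells Lamb1 made up 46.2 ± 7.35% in injured and 22.4 ± 4.83% in uninjured cells. Lamc1 led its class in every group. A share shows unequal levels within the class and no test was run on it; lengths of the longest transcript in place of merged exons put Lamb1 first in injured CD31+ cells and Itga6 first among alpha subunits in uninjured CD31+ cells.

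**Figure D4:**
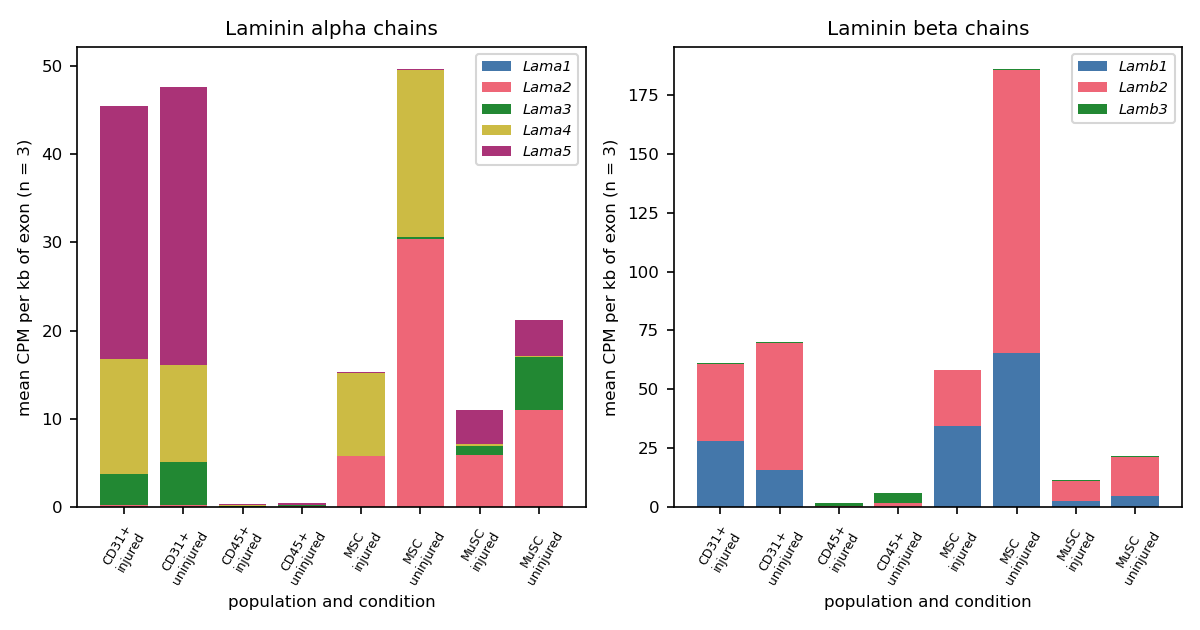
Mean CPM per kb of merged exon for the laminin alpha and beta chains, stacked, in each group of 3 libraries, with injured left of uninjured. The stacks of injured MSC and MuSC are lower than those of uninjured MSC and MuSC, and the CD45+ stacks are near 0.

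Per kb, the leading integrin alpha subunit of MSC also differed between conditions. Itga5 made up 80.6 ± 5.76% of the alpha class in injured and 19.2 ± 2.00% in uninjured MSC, and Itga11 made up 8.76 ± 3.35% in injured and 64.4 ± 4.80% in uninjured MSC. Among beta subunits of MSC, Itgb1 held 64.9 ± 2.38% in injured and 35.0 ± 4.33% in uninjured cells, and Itgb5 held 26.2 ± 1.99% and 40.7 ± 5.02%. Itgam led in CD45+ cells, with 66.0 ± 2.37% in injured and 37.7 ± 5.17% in uninjured cells, and Itgb2 led the beta class there, with 76.0 ± 2.37% and 59.6 ± 1.69%. Itga7 led in MuSC, with 71.1 ± 8.27% in injured and 76.9 ± 2.65% in uninjured cells.

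Genes that work with these receptors and chains were taken from 5 lists, whose counts stand against the shares of all genes tested: for rises these were 14.1% (CD31+), 16.0% (CD45+), 18.3% (MSC) and 21.4% (MuSC), and for falls 9.30% (CD31+), 18.5% (CD45+), 23.6% (MSC) and 17.5% (MuSC). Of 23 tested genes of other basement membrane proteins, 13 fell and 1 rose in injured MSC, and 10 fell and 5 rose in injured MuSC, against 2 and 1 in CD31+ cells and 3 and 1 in CD45+ cells. Col15a1, a basement membrane collagen, averaged 10.9 CPM in injured and 90.8 CPM in uninjured MuSC (log2 fold change -3.05). The nephronectin gene Npnt, a ligand of integrin alpha 8, averaged 66.6 CPM in injured and 2.18 CPM in uninjured MuSC (log2 fold change 4.98). Of 24 genes of the dystroglycan complex and its sugar chains, 8 fell and 2 rose in MSC and 8 fell and 4 rose in MuSC, with 6 falls and 1 rise in CD45+ cells and 3 of each in CD31+ cells. Utrn, which encodes the dystrophin relative utrophin, fell in all 4 populations, by 0.51 in CD31+ cells, 2.18 in CD45+ cells, 1.52 in MSC and 1.25 in MuSC on the log2 scale. Dmd, dystrophin, averaged 70.8 CPM in injured and 179 CPM in uninjured MuSC (log2 fold change -1.34).

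Of 29 adaptor and focal adhesion genes, CD31+ cells had 10 rises and 2 falls, CD45+ cells 9 and 5, MSC 8 and 6, and MuSC 9 and 5. Zyx and Flna, which link adhesions to actin, averaged 256 and 578 CPM in injured and 131 and 282 CPM in uninjured CD31+ cells. Tns3 averaged 163 CPM in injured and 13.3 CPM in uninjured MuSC. Of 18 tested integrin ligands, MSC had 6 rises and 5 falls, MuSC 7 and 4, CD45+ cells 5 and 4, and CD31+ cells 3 and 3. Tenascin C (Tnc) averaged 354 CPM in injured and 10.3 CPM in uninjured MSC, 284 and 1.55 CPM in injured and uninjured MuSC, and 71.8 and 3.82 CPM in injured and uninjured CD31+ cells. Osteopontin (Spp1), a ligand of alpha v integrins, averaged 6159 CPM in injured and 37.6 CPM in uninjured CD45+ cells. Of 11 other laminin receptors and tetraspanins, MSC had 7 rises and 4 falls, MuSC 4 and 3, CD45+ cells 5 and 2, and CD31+ cells 3 and 1. Cd81 averaged 123 CPM in injured and 1541 CPM in uninjured CD45+ cells.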

How the data were processed

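Poly(A) RNA of about 1000 double-sorted cells per library was copied from oligo(dT), amplified and tagged with Nextera XT, and sequenced as paired reads of 25 bases, per the labels' protocols. These steps mark no strand and, as described, carry no molecular identifiers. The authors deposited raw read counts per gene symbol with no normalization, made with STAR 2.5.4, featureCounts and mm10, per the submitters' processing notes. For featureCounts, neither its settings nor the gene models were stated in those notes.

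All 24 libraries went into 1 edgeR 4.0.16 fit (R 4.3.3, limma 3.58.1): edgeR's low-count filter over 8 groups kept 16263 genes, TMM scaled the libraries, and the robust quasi-likelihood test gave p-values, adjusted by Benjamini-Hochberg within each comparison (16 residual degrees of freedom, common biological coefficient of variation 0.224). Adjusted p below 0.05 passed. CPM used TMM-scaled sizes; SE is the fold change over the square root of F. Injured was compared with uninjured cells in each population, and injury effects between populations. In simulated counts for MuSC over 16263 genes, 50 of 100 genes changed 2-fold and 94 of 100 changed 4-fold were recovered, with 12 false among 156 calls. All other genes were left unchanged between injured and uninjured MuSC there. In the data 21.4% of genes tested rose and 17.5% fell in MuSC, so recovery there can differ from the simulated one. Alternatives were RLE, DESeq2 1.42.0, limma voom, no filter, a replicate block, leaving out libraries and fits of 6 libraries. Positions and exon lengths came from GENCODE vM21, promoters from RefSeq (GRCm38.p6). Within each population, values by library were given for up to 4 genes per direction with the smallest adjusted p and a mean of 20 CPM or more, for 3 genes highest in each uninjured population, and for the 3 smallest F test p-values with no group at 0 counts. Other values by library, and values for other members, were chosen after they were seen. Members, gene lists and the 4 libraries left out were chosen with earlier results of these data known. One member entered every fit and count, but its own values are not reported here.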

Additional observations from a re-analysis of the deposited data

Results flagged for a closer look

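Injury effects that differed between the 4 populations were flagged by the F test over populations (edgeR, Benjamini-Hochberg adjusted p over 16263 genes), for 22 of 37 genes. Each value here is that adjusted p. Among integrin beta genes it was 3.47e-10 for Itgb5, 1.95e-05 for Itgb3, 3.39e-05 for Itgb7, 0.0015 for Itgb6 and 0.022 for Itgb1. Itgb5 rose in CD45+ cells and fell in the other 3 populations, Itgb3 rose in CD31+ cells and fell in CD45+ cells and MSC, and Itgb6 rose in MuSC and fell in MSC.

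Among integrin alpha genes the adjusted p was 3.91e-05 for Itga8, 0.000183 for Itga1, 0.00169 for Itga3, 0.00247 for Itga11, 0.00982 for Itga2b, 0.0242 for Itga2 and 0.0357 for Itga9. Itga1 and Itga8 rose in CD45+ cells, while Itga1 fell in CD31+ cells and MSC and Itga8 fell in CD31+ cells, MSC and MuSC. Itga3 rose in CD31+ cells and MuSC.

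For the laminin chains it was 9.75e-07 for Lamc1, 0.000199 for Lama2, 0.00033 for Lamb2, 0.00105 for Lama3, 0.00606 for Lamb3, 0.0173 for Lama4 and 0.0267 for Lamb1. For the nidogens it was 0.000122 for Nid2 and 0.0375 for Nid1.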

How the results depend on the processing

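Of 148 gene and population pairs tested, 65 passed and 43 of these passed in every alternative fit; none of the 65 changed direction. The count of genes that rose in MuSC was 5 with limma voom and 6 without the filter (3 as reported), and that in MSC was 1 without the filter (2 as reported). Genes that fell in CD31+ cells numbered 2 without the 4 libraries that stood apart (4 as reported). Leaving out 1 library at a time gave 2 to 5 genes that fell in CD31+ cells, 5 to 9 that fell in CD45+ cells, 1 to 2 that rose in MSC and 3 to 6 highest in injured MSC. The cause was not tested. Under RLE scaling, the all-gene median in CD31+ cells shifted by -0.11 on the log2 scale.

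Effects that had not passed turned to the other sign in some fits, and examples follow as log2 fold changes. Nid1 in CD45+ cells was at -6.91 without injured library 3, and at 0.17, 0.19 and 0.40 without injured library 1 or 2 or uninjured library 1. Itga1 in MuSC was at -2.07 to 0.13 without 1 library, and at 0.71 without the 4 libraries. Itgb3 in MuSC was at -0.10 to 4.77 without 1 library, and at -2.04 without the 4 libraries. Among the 56 gene and population pairs that passed in no fit, 86 of 1707 refits had the other sign.

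Between injured and uninjured libraries of a population, replicate numbers gave no sign of pairing. Deviations of same-numbered libraries correlated at -0.083 to 0.072, and 4 of 12 were closest to their own number. With 3 libraries per group this cannot exclude a shared mouse. Same numbers in different populations were not compared. With the replicate number as a block, 22 genes fell in MSC (23 as reported; Itgb6 lost its call) and 23 responses differed (22 as reported). Lengths of the longest transcript gave another leading gene in 2 of 40 cases (chain classes in each group) and moved 20 of the 40 leading shares by more than 1 SD, for example Lama5 in injured CD31+ cells to 48.8% (63.0% by merged exons) and Lama2 in injured MuSC to 65.4% (53.8%). Counts of at most 21 over the 6 MSC libraries limit Itga3, Itga4, Itgb6 and Lama3 there.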

Other observations

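Some genes known from blood cells were counted in MSC, values singled out after they were seen. Itga2b, the platelet integrin subunit, was at 17.8, 26.5 and 24.8 CPM in injured and 33.3, 37.4 and 24.4 CPM in uninjured MSC, more than in CD45+ cells (0.704 CPM injured and 3.83 CPM uninjured on average). The platelet genes Ppbp and Gp6 were at most 0.280 and 0.166 CPM in any MSC library, and Pf4 was at 3.77, 3.65 and 5.39 CPM in injured and 0.168, 0.224 and 0 CPM in uninjured MSC. The other listed platelet genes Gp9, Gp1bb and Gp1ba had counts in both MSC groups. All 7 platelet genes, Itga2b among them, summed to 22.9 to 32.3 CPM in injured and 26.7 to 42.1 CPM in uninjured MSC. Itgb7 reached 86.6, 87.1 and 24.9 CPM in uninjured MSC, beside leukocyte genes that summed to at most 2.91 CPM there. The source of these reads was not tested.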
